A study of Mus musculus with 10 samples.

Results

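*Pou5f1* (*Oct4*), *Sox2*, *Klf4* and *Myc* are the 4 genes whose copies the reprogramming retroviruses carried into the fibroblasts. They were taken by symbol from a table of 18901 genes, and all 4 were among the 17075 genes that could be tested, those reaching a value of 10 in no fewer than 2 libraries. The table holds 1 value a gene, so reads from an introduced copy and reads from the gene's own chromosome were counted together, and the values below are their sum. RNA of 5 mouse lines, all from a mf1 and 129 cross, was sequenced with 2 libraries a line. Oct4-GFP MEF, fibroblasts of midgestation embryos that carry a green fluorescent protein reporter of *Oct4*, were grown in DMEM with fetal calf serum and taken at passages 2 and 4. The pre-iPS line, the 'control' iPS line and 'Netrin-1-derived' iPS clones 1 and 2 came from such fibroblasts after infection with the 4 retroviruses. They were grown in serum replacement medium (KSR) with LIF, and were taken at passages 5 and 25. For pre-iPS and iPS cells the study's methods name this medium with or without the 2i components PD0325901 and chiron. Clones 1 and 2 were derived with recombinant Netrin-1, a secreted ligand of the receptor DCC, and the control iPS line came from standard conditions. Apart from MEF, a culture of embryo cells, each line is 1 line or clone, and its 2 passages are repeated samples of it, so every p below compares these lines and passages rather than independently derived clones. Pre-iPS cells are partially reprogrammed: by the study's account the *Oct4* reporter locus is still off in them and the introduced copies are still on.

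The 4 proteins are transcription factors of different families that together can turn a fibroblast into a pluripotent cell. Oct4, a POU domain protein, and Sox2, an HMG box protein, bind next to each other at enhancers of pluripotency genes such as *Nanog*, *Fgf4* and *Utf1*, and at their own genes. Klf4 is a zinc finger protein that binds GC-rich elements of many of the same enhancers and of the *Cdh1* promoter. Myc pairs with Max at E-boxes and raises transcription of genes of ribosome assembly, nucleotide synthesis and glycolysis. A retroviral copy consists of the coding sequence under the virus's own promoter, and pluripotent cells usually shut that promoter down while the chromosomal genes *Pou5f1* and *Sox2* come on.

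In GENCODE M21 (GRCm38, the same assembly as mm10) *Pou5f1* lies at chr17:35506018-35510772 on the plus strand, *Sox2* at chr3:34650405-34652461 (plus), *Klf4* at chr4:55527143-55532466 (minus) and *Myc* at chr15:61985391-61990374 (plus). Their exons span 2248, 2057, 3049 and 2717 bases, of which 1122, 957, 1449 and 1362 are coding. Only the coding bases, 46.5 to 50.1% of the exons, can be present in a copy made of the coding sequence. The chromosomal promoters, which the retroviral copies lack, are given for the 3 factors that RefSeq's table of promoters for GRCm38.p6 matched by symbol. Shown are the 250 bases before the RefSeq start site, 5′ to 3′ on the gene's strand. They lie at chr17:35505782-35506031 (plus) for *Pou5f1*, chr3:34649745-34649994 (plus) for *Sox2* and chr4:55532476-55532725 (minus) for *Klf4*. RefSeq starts *Sox2* at 34649995, upstream of the GENCODE start at 34650405, so that window does not adjoin the gene as placed above. Capitals mark matches to GGGCGG (the GC box read by Sp and Klf proteins) and to CACGTG (the E-box read by Myc and Max) on either strand.
Pou5f1: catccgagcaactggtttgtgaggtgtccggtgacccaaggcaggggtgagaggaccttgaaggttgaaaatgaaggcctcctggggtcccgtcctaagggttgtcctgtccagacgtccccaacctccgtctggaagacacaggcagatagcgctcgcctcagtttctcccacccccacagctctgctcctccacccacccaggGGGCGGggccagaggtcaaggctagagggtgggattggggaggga
Sox2: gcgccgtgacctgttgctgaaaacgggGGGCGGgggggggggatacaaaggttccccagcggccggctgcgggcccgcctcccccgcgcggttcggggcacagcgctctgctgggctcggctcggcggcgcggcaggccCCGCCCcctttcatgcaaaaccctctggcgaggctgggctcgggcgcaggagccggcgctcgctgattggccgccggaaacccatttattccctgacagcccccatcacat
Klf4: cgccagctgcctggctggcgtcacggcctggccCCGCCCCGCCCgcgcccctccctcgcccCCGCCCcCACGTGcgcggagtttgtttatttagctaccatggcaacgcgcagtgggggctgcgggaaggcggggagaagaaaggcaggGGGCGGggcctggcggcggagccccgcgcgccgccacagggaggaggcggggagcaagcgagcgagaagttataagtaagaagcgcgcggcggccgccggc
The *Pou5f1* window held 1 GC box, that of *Sox2* 2 and that of *Klf4* 4, of which 2 share a base, while 32.7% of 32851 such windows held at least 1. The only E-box stood in the *Klf4* window, and 6.02% of all windows held one. Neither the octamer ATGCAAAT, nor CATTGT (the core read by SOX proteins), nor TATAAA was found in these 3 windows, and 1.60%, 10.7% and 12.4% of all windows held them. *Sox2* and *Klf4* windows were 72% and 74% G and C and that of *Pou5f1* 62%, against a median of 52.4%. RefSeq lists a second, downstream start of *Pou5f1*, at which the window at chr17:35508557-35508806 held CATTGT and no GC box.

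All 4 factors were highest in pre-iPS cells, intermediate in the 3 iPS lines and lowest in MEF. Values are the authors' pseudo-counts, read counts that edgeR scaled between libraries, where 1 read is worth about 1. The libraries held 38110410 to 52946856 reads on genes. The values summed to 39745507 to 41892877 in the 8 pre-iPS and iPS libraries, and to 56073322 and 55886953 in MEF. Ratios to MEF therefore depend on this scaling and differ from ratios of shares of reads. *Pou5f1* stood at 2538 (passage 2) and 2047 (passage 4) in MEF, and the pre-iPS libraries held 392944 (passage 5) and 415437 (passage 25). The control iPS line had 107448 and 100508, clone 1 had 91002 and 98699, and clone 2 had 110018 and 91816, earlier passage first. The pre-iPS libraries thus lay far above the 6 iPS libraries, which spread by only 7.83% (coefficient of variation). *Pou5f1* was the gene with the second highest value in both pre-iPS libraries and ranked 13 to 18 in the iPS libraries. In bulk RNA of this kind, fewer cells with a transcript and less of it per cell cannot be told apart.

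*Sox2* had the lowest level of the 4 per kilobase in every line. MEF held only 132 and 138, against 18529 and 21950 for the pre-iPS line. The control had 9629 and 8304, clone 1 had 9322 and 10979, and clone 2 had 11553 and 14832. The groups did not overlap, but as a ratio the step from the highest iPS library (clone 2, passage 25) to the lowest pre-iPS library (passage 5) was the narrowest among the 4 factors.

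*Klf4* and *Myc*, unlike the other 2, are expressed by many cell types, yet in MEF both were close to *Pou5f1* on the per-kilobase scale. For *Klf4* MEF had 2657 and 2537, pre-iPS cells 101113 and 121484, the control 28768 and 32624, clone 1 47975 and 66644, and clone 2 43759 and 46030. For *Myc* MEF had 2594 and 2481, pre-iPS cells 126813 and 139917, the control 49129 and 51130, clone 1 68172 and 88310, and clone 2 45259 and 44613. For both, clone 1 passage 25 was the highest iPS library, and the 6 iPS libraries spread by 30.2% for *Klf4* and 29.9% for *Myc*.

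**Figure D1:**
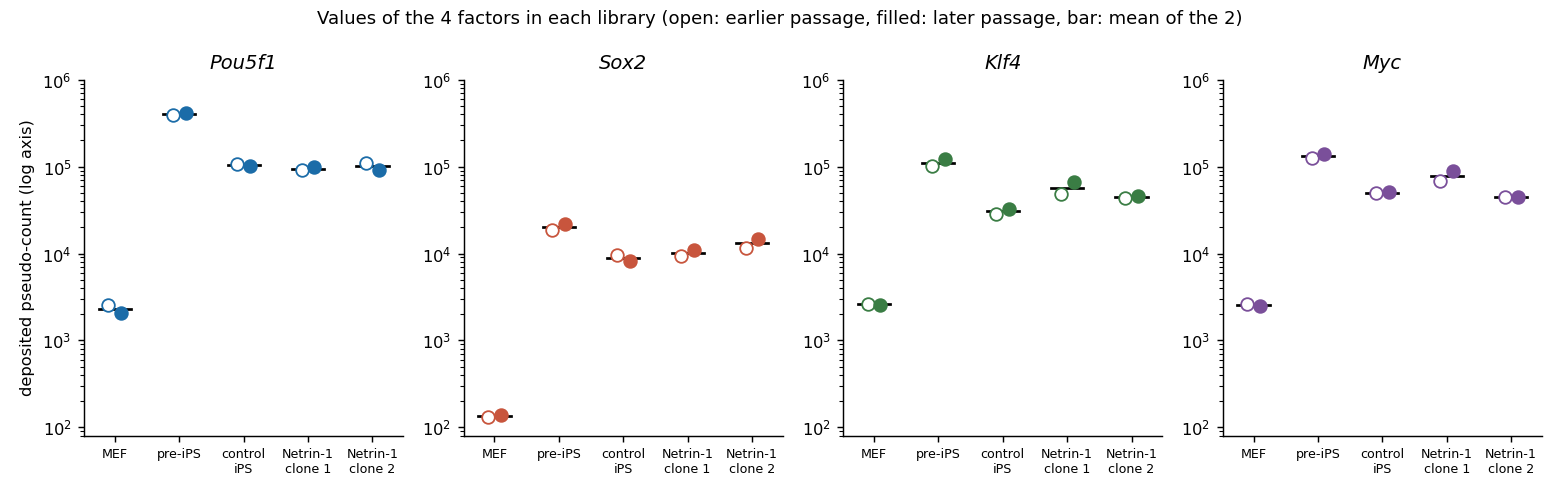
Pseudo-counts (log axis) of each factor in the 10 libraries, by line; open circles are the earlier passage, filled circles the later one, bars the mean of the 2. For every factor the pre-iPS libraries lie above all iPS libraries and the MEF libraries below them, with *Sox2* in MEF lowest at 132 and 138.

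Together the 4 factors took 1.53 and 1.70% of all reads on genes in pre-iPS cells, 0.467 to 0.659% in the iPS libraries and 0.0142 and 0.0129% in MEF. Divided by exon length, the pre-iPS means were 179800 ± 7075 per kilobase for *Pou5f1* (SD, n = 2 as for each line mean), 49085 ± 3411 for *Myc*, 36503 ± 4724 for *Klf4* and 9840 ± 1176 for *Sox2*. In the 6 iPS libraries the same order held, with 44446 ± 3478, 21262 ± 6352, 14529 ± 4385 and 5236 ± 1122 per kilobase (SD, n = 6). In MEF *Pou5f1*, *Myc* and *Klf4* were at 1020 ± 155, 934 ± 29.3 and 852 ± 27.7 per kilobase and *Sox2* at 65.6 ± 2.23. With coding length as divisor the pre-iPS levels were 360241, 97918, 76810 and 21149. The iPS levels were then 89051, 42415, 30573 and 11254, both in the same order. Which divisor suits the summed reads of introduced and chromosomal copies was not tested.

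In pre-iPS cells all 4 factors were called higher than in the iPS lines, where 18.7% of all genes tested were called higher. The ratio of mean values was 4.05 for *Pou5f1*, 2.51 for *Klf4*, 2.31 for *Myc* and 1.88 for *Sox2*. On log2(value + 1) the differences were 2.02 ± 0.10 (SE; limma adjusted p = 4.47e-06), 1.38 ± 0.13 (9.09e-05), 1.25 ± 0.10 (3.55e-05) and 0.93 ± 0.12 (0.000516) in that order. Each of these calls held against the control, clone 1 and clone 2 taken singly, where 17.6, 9.53 and 15.4% of genes were called higher. The smallest of those differences, 0.62 ± 0.15, was that of *Sox2* against clone 2 (limma adjusted p = 0.0119). No pre-iPS library overlapped an iPS library for any factor, as was so for 20% of genes with pre-iPS higher. An exact two-sided permutation test of the libraries gave p = 0.0357 for each factor, the smallest that 2 against 6 allows.

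As estimated, the difference was largest for *Pou5f1* and smallest for *Sox2*, and ratios between factors were used to compare the sizes. Per kilobase, the ratio of *Pou5f1* to *Sox2* was 19.4 and 17.3 in pre-iPS cells and 5.66 to 11.1 in the iPS libraries, without overlap. Its log2 ratio was higher in pre-iPS cells by 1.09 (exact permutation p = 0.0357, and 0.214 adjusted over the 6 pairs of factors). The ratio of *Pou5f1* to *Myc* also did not overlap, at 3.75 and 3.59 against 1.35 to 2.94, a difference of 0.77 in log2 (exact p = 0.0714, adjusted 0.214). For *Pou5f1* to *Klf4* the difference was 0.64 (exact p = 0.143, adjusted 0.286), and control passage 5, at 5.07, lay between the pre-iPS values of 5.27 and 4.64. The 3 ratios without *Pou5f1* differed by -0.45 to 0.12 in log2 (exact p = 0.286 to 0.643). No pair passed the adjusted threshold, which 2 against 6 libraries cannot reach for a single pair among 6.

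**Figure D2:**
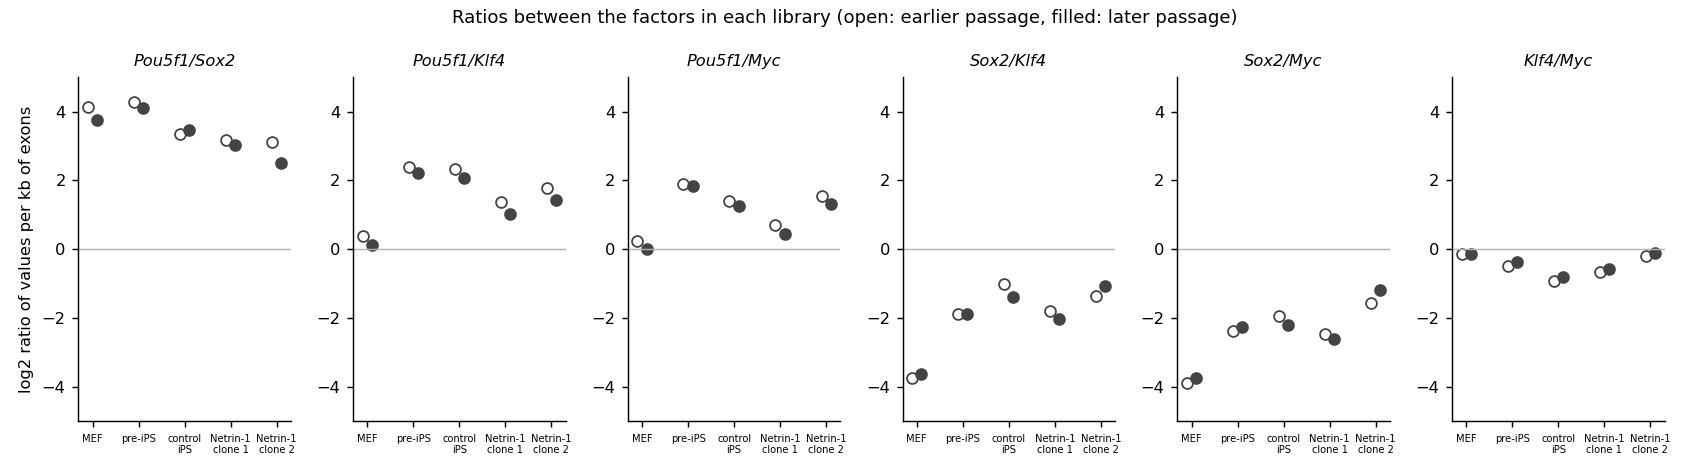
Log2 ratio of values per kilobase of exons for the 6 pairs of factors, by line; open circles are the earlier passage and filled circles the later one. *Pou5f1* to *Sox2* is highest in the pre-iPS and MEF libraries, and *Klf4* to *Myc* stays below 0 in all 10 libraries, at ratios of 0.522 to 0.919.

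Compared with the iPS lines, MEF had less of all 4 factors, where 41.9% of genes tested were called lower. The log2 difference was -6.28 ± 0.12 for *Sox2* (limma adjusted p = 3.74e-09), -5.45 ± 0.10 for *Pou5f1* (3.91e-09), -4.46 ± 0.10 for *Myc* (5.60e-09) and -4.04 ± 0.13 for *Klf4* (2.67e-08). As ratios of means, the iPS level was 79.8 times that of MEF for *Sox2*, 43.6 times for *Pou5f1*, 22.8 times for *Myc* and 17.1 times for *Klf4*. Pre-iPS cells stood 150, 176, 52.6 and 42.9 times above MEF, and each factor was called higher there (36.4% of genes were). Over all genes 6385 were called higher and 7161 lower in MEF than in iPS lines, and scaling to 4 housekeeping genes turned this to 8423 and 5387, a shift of the median from -0.09 to 0.30. The 4 factors kept to -3.65 or lower under that and every other alternative. MEF had all 11 fibroblast markers higher than the iPS lines (37.4% of genes were), with a summed value of 2902790 and 3045666 against 20902 to 35851 in the 8 other libraries, which by the methods grew on gelatin or irradiated MEF. None of the 11 was called between pre-iPS and iPS lines, and the part of feeder cells was not tested. Of 8 macrophage markers 7 were called higher in MEF than in iPS lines and 1 in pre-iPS cells, and of 4 housekeeping genes 1 was higher and 3 lower in MEF and 2 were higher in pre-iPS cells. For the naive pluripotency markers the sums were 178 to 199 (MEF), 16837 to 17777 (pre-iPS) and 33530 to 78480 in the iPS libraries.

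*Pou5f1*, a gene of pluripotent and germ cells, was counted with 2154 and 1936 reads in MEF. The mean MEF count amounted to 0.142% of the summed count of the 8 other libraries. For *Sox2*, *Klf4* and *Myc* that share was 0.112, 0.464 and 0.362%. The naive markers, chosen for comparison after their values were seen, gave 0.104% for *Nanog*, 0.0726% for *Zfp42* and 0.0651% for *Esrrb*. The rest were lower, at 0.0300% for *Dppa5a*, 0.0265% for *Tdgf1*, 0.0257% for *Utf1* and 0.00722% for *Dppa3*. The part of reads crossing between libraries was not tested.

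**Figure D3:**
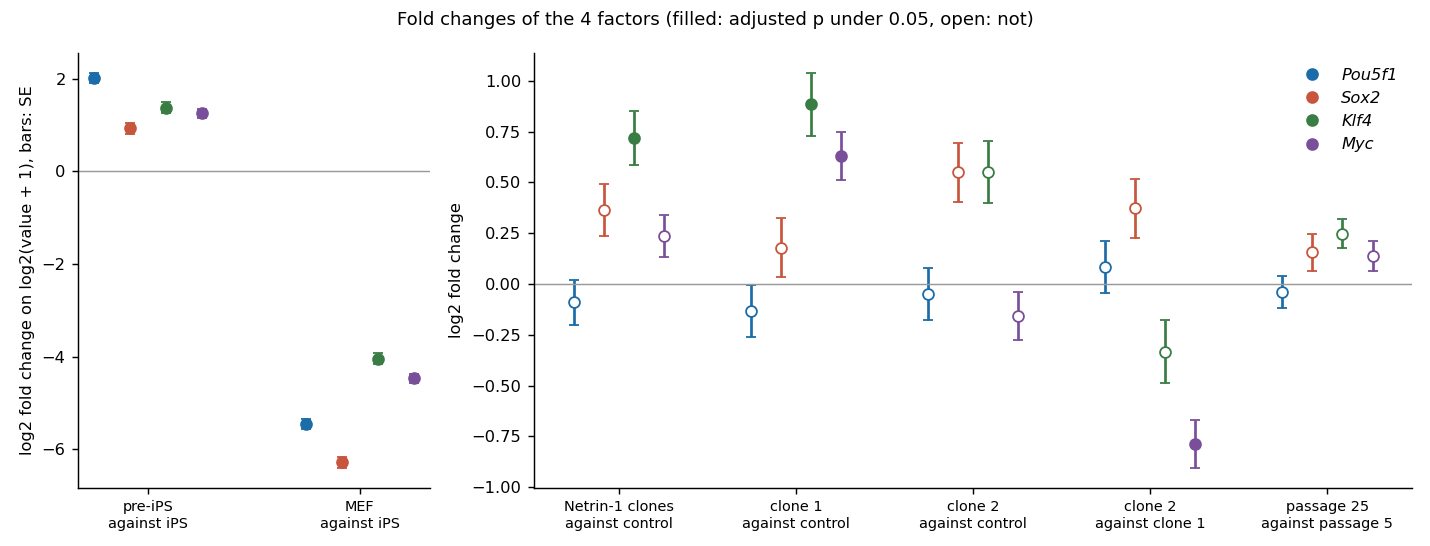
Log2 fold changes on log2(value + 1) with their SE in the comparisons of lines and passages; filled points passed an adjusted p of 0.05 and open points did not. Against iPS all 4 factors are filled, above 0 for pre-iPS cells and below 0 for MEF; between the iPS lines only *Klf4* and *Myc* have filled points.

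Among the iPS lines the 4 factors gave different orders. For *Pou5f1* the 2 clones together differed from the control by -0.09 ± 0.11 in log2, not called (limma adjusted p = 0.751). *Klf4* was higher in all 4 Netrin-1 libraries than in both control libraries, by 0.72 ± 0.13 (limma adjusted p = 0.0255), where 4.08% of genes were called in either direction and 10.3% lay higher without overlap. The exact permutation test of those libraries gave p = 0.0667, the smallest that 4 against 2 allows. *Sox2* and *Myc* differed by 0.36 ± 0.13 (limma adjusted p = 0.172) and 0.24 ± 0.10 (0.272), with libraries that overlapped. The *Klf4* call was lost in a fit of the 3 iPS lines alone (limma adjusted p = 0.0938) and without either control library, either clone 2 library or either MEF library (up to 0.154), while its size kept to 0.60 to 0.84 over all single libraries left out.

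The 2 clones did not carry the same pattern. Clone 1 had 1.87 times the *Klf4* and 1.56 times the *Myc* of the control, 0.88 ± 0.15 and 0.63 ± 0.12 in log2 (limma adjusted p = 0.0288 and 0.0361), and 2.48% of genes were called between these lines. Clone 2 had 1.46 times the *Klf4* and 1.47 times the *Sox2*, 0.55 ± 0.15 for each (limma adjusted p = 0.0951 and 0.0789), and 0.896 times the *Myc*; 4.15% of genes were called. With passage as a block, both clone 2 differences passed (limma adjusted p = 0.0214 for *Klf4* and 0.0443 for *Sox2*), and the number of genes called rose from 709 to 1469. Between the clones themselves *Myc* was lower in clone 2 by 0.79 ± 0.12 (limma adjusted p = 0.0243; 1.59% of genes called), and its libraries did not overlap. The differences of *Sox2* (0.37 ± 0.15) and *Klf4* (-0.33 ± 0.15) did not pass between the clones (limma adjusted p = 0.251 and 0.332). The calls of *Klf4* and *Myc* in clone 1 and of *Myc* between clones were lost in fits of the 2 lines alone (limma adjusted p = 0.171 for *Klf4* and 0.200 for *Myc* in clone 1, 0.232 for *Myc* between clones) and without clone 1 passage 25 or either MEF library (0.0692 to 0.126). Those of clone 1 were also lost without either control library (0.0852 to 0.166), that of *Myc* in clone 1 without either pre-iPS library (0.0530 and 0.0534), and that between clones without clone 2 passage 25 (0.153). *Klf4* in clone 2 was called without either clone 1 library (limma adjusted p = 0.0410 and 0.0415).

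Read as an order of lines, *Pou5f1* ran MEF, clone 1, clone 2, control, pre-iPS, and neither step among the 3 iPS lines was called (limma adjusted p = 0.784 and 0.885). In the case of *Sox2* it was MEF, control, clone 1, clone 2, pre-iPS, again with no called step among the iPS lines (limma adjusted p = 0.596 and 0.251). For *Klf4* the order was MEF, control, clone 2, clone 1, pre-iPS, where neither iPS step was called (limma adjusted p = 0.0951 and 0.332). *Myc* ran MEF, clone 2, control, clone 1, pre-iPS, and its step from control to clone 1 was called. Every step up from MEF and every step up to pre-iPS was called.

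Per kilobase, *Pou5f1* to *Klf4* was 5.07 and 4.18 in the control against 2.57 and 2.01 in clone 1 and 3.41 and 2.71 in clone 2, a log2 difference of -0.81 over the clones (exact permutation p = 0.0667, adjusted 0.267). For the 5 other pairs the exact p was 0.133 to 0.933, and 4 against 2 libraries cannot pass 0.05.

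From passage 5 to passage 25 no factor was called, where 10.9% of genes were. That share was 1.36 or 1.43% without a clone 1 library, 2.91 or 2.99% without a pre-iPS library and 6.16 or 6.14% without a clone 2 library. *Klf4* was higher at passage 25 in all 4 lines, by up to 1.39 times, in clone 1, and 0.25 ± 0.07 in log2 over the lines (limma adjusted p = 0.0707). Count models on the recovered reads put this difference under the threshold (edgeR adjusted p = 0.0484, DESeq2 0.0103). *Sox2* had 1.18 to 1.28 times its earlier value in 3 lines and 0.862 times in the control, 0.16 ± 0.09 in log2 over the lines (limma adjusted p = 0.301). Without either control library it was called, at 0.28 (limma adjusted p = 0.0295). The passage difference of pre-iPS cells was compared with that of the iPS lines as an interaction, and no gene of 17075 was called by limma (0% of genes, with 568 at an unadjusted p under 0.05). Within the pre-iPS line the 4 factors at passage 25 were 1.06 to 1.20 times those at passage 5.

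In 3 of the 4 families, relatives of the factors were called lower more often than higher in pre-iPS cells. Among the 12 POU genes tested besides *Pou5f1*, 1 was called higher and 5 lower than in iPS lines, among 17 SOX genes 1 and 10, among 16 KLF genes 2 and 6, and among 12 genes of the Myc and Max network 2 and 2. The medians of these lists were -0.20, -1.36, -0.32 and 0.12 in log2, against 0.00 over all genes, of which 18.7% were called higher and 20.8% lower. The SOX and KLF lists had more genes lower than higher under every alternative, while the POU list had 3 in each direction after quantile normalization and was 1 higher and 2 lower among genes with a mean value of at least 50, and 0 higher and 4 or 3 lower without pre-iPS passage 5 or 25. The Myc network had 1 and 1 without pre-iPS passage 5, 3 and 3 without clone 1 passage 5, and 4 and 3 without clone 2 passage 5, and with passage as a block 5 higher and 3 lower. Of 8 relatives closest to a factor in sequence or use, *Sox1*, *Sox3*, *Sox15*, *Klf2*, *Klf5*, *Mycn*, *Mycl* and *Max*, 5 were called lower and none higher. *Mycn*, the Myc paralog of early embryonic cells, was at 249 and 179 in pre-iPS cells against 1192 to 2275 in iPS libraries, -3.00 ± 0.21 in log2 (limma adjusted p = 2.12e-05). *Klf2* was at 830 and 698 against 1061 to 5105 (-1.56 ± 0.22, limma adjusted p = 0.000933) and *Klf5* at 699 and 734 against 814 to 1473 (-0.55 ± 0.13, 0.00906), both regulators of the naive state.

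Of the SOX genes nearest to *Sox2*, *Sox3* differed by -3.40 ± 0.46 and *Sox15* by -1.36 ± 0.30 (limma adjusted p = 0.000726 and 0.00748), while *Sox1*, at 1465 and 1774 against 544 to 1719, did not pass (0.78 ± 0.43, 0.183). *Max*, the obligate partner of Myc, and *Mycl* (listed as Mycl1) did not pass either, at 0.24 ± 0.10 and -0.52 ± 0.21. Among the relatives with the largest values, *Pou2f1* (Oct1) differed by -0.03, *Sox4* by -0.36, *Sox11* by 0.44, *Klf6* by 0.07, *Klf10* by -0.08, *Mga* by -0.20 and *Pou6f1* by 0.25, none of which was called. *Klf3*, the listed paralog of *Klf4* with the largest value in pre-iPS cells, was higher by 0.62 ± 0.06 (limma adjusted p = 0.000169). Others behind these counts, named after their values were seen, included *Pou3f4*, *Sox5*, *Klf13*, *Mnt* and *Mxi1* on the higher side and *Mlxipl*, *Pou3f1*, *Pou4f3*, *Pou4f2* and *Pou2f2* on the lower.

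Most of 13 listed targets of Oct4 and Sox2 were lower in the cells with the most *Pou5f1* and *Sox2*. The list was chosen with earlier results of these data known and does not stand for their targets in general. None of its genes was called higher and 10 were called lower in pre-iPS cells than in iPS lines, with a median of -1.72 in log2. Of all genes 18.7% were called higher and 20.8% lower. *Esrrb* was at 31.6 and 15.4 in pre-iPS cells against 900 to 7387 in iPS libraries (-6.78 ± 0.35, limma adjusted p = 4.28e-06), *Tcl1* at 4.08 and 1.92 against 55.4 to 961 (-5.88 ± 0.38, 1.52e-05) and *Lefty1*, a Nodal antagonist, at 99.98 and 244 against 1432 to 6435 (-4.28 ± 0.45, 0.000179). At the other end of the list *Zfp42* (Rex1) differed by 0.02 ± 0.22, *Spp1* by -0.07 and *Fgf4* by -0.23 ± 0.26, with pre-iPS values inside the iPS range. Of the 7 naive markers, which apart from *Dppa3* are all in that list of 13, 6 were lower beside the same 20.8%. They were led by *Dppa3* (-7.11 ± 0.41), a factor of oocytes and early embryos. Then came *Esrrb*, *Nanog* (-3.74 ± 0.16), *Dppa5a* (-2.61 ± 0.25), *Utf1* (-1.72 ± 0.22) and *Tdgf1* (-1.39 ± 0.26).

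**Figure D4:**
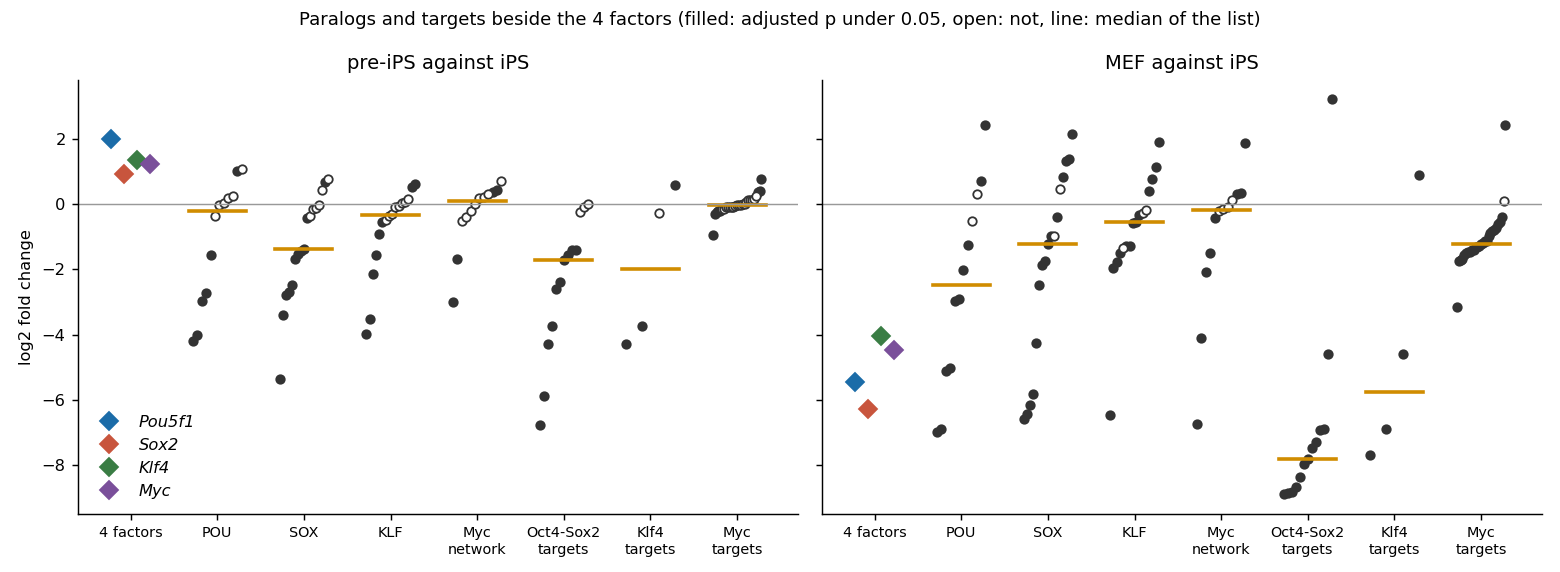
Log2 fold changes of the 4 factors (diamonds) and of each tested gene of the paralog and target lists (circles), for pre-iPS cells (left) and MEF (right) against iPS; filled circles passed an adjusted p of 0.05, and the orange line is the list's median. On the left the factors lie above 0 while the Oct4-Sox2 targets reach down to -6.78; on the right the factors and all of those targets but *Spp1* lie below 0.

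Klf4 and Myc targets gave a mixed picture. Of 4 Klf4 targets, *Cdkn1a*, the cell cycle inhibitor p21, was higher in pre-iPS cells by 0.59 ± 0.18 (limma adjusted p = 0.0294). *Lefty1* and *Nanog*, both also in the list of Oct4-Sox2 targets, were lower, and *Cdh1* (E-cadherin) differed by -0.25 ± 0.13 without passing. The *Cdkn1a* call was lost in a fit of the pre-iPS and iPS lines alone and without pre-iPS passage 5, control passage 25 or either MEF library. Of 27 Myc targets 3 were called higher and 5 lower, with a median of -0.02, shares no larger than the 18.7% and 20.8% of all genes. The count fell to 2 higher and 2 lower without either pre-iPS library, and the 5 lower to 3 without control passage 5, clone 1 passage 5, clone 2 passage 5 or either MEF library and in a fit of only the lines compared. Among those called with all libraries, *Ccnd2* (cyclin D2), *Tert* and *Shmt2* were higher by 0.79 ± 0.25, 0.43 ± 0.10 and 0.38 ± 0.10, and *Odc1*, the first enzyme of polyamine synthesis, *Npm1* and *Ncl*, both nucleolar, differed by -0.95, -0.31 and -0.23, all called lower. In MEF most of this list was lower: 25 of the 27 were lower in MEF than in iPS lines and 1, *Ccnd2*, higher, where 41.9% of all genes were lower and 37.4% higher, with a median of -1.23 beside -0.09 over all genes. Housekeeping and the other scalings left the median of this list at -0.84 or lower. Of the Oct4-Sox2 targets 12 were lower in MEF and *Spp1* higher, by 3.22.

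Between the clones, 5 of the 13 Oct4-Sox2 targets were higher in clone 2 than in clone 1 and none lower, where 1.12% of all genes were higher, while *Pou5f1* and *Sox2* were not called. They were *Zfp42*, *Nanog*, *Tcl1*, *Esrrb* and *Fbxo15*, the last named after its values were seen. *Nanog* was at 3063 and 2489 in clone 1 and at 7441 and 6852 in clone 2 (1.37 ± 0.20, limma adjusted p = 0.0221). *Klf2* was higher too, at 3263 and 5105 against 1496 and 1061 (1.69 ± 0.27, 0.0294). None of the 27 Myc targets was called between the clones, and none of the 13 Oct4-Sox2 targets between both clones and the control. The count of 5 fell to 0 without clone 2 passage 25 and in a fit of the clones alone, and to 1 without either clone 1 or either MEF library.

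Around the factors on the chromosome, 1 of the 8 testable genes that start within 100 kb was called higher in pre-iPS cells, a share below the 18.7% of all genes. Of 7 listed genes that start within 100 kb of *Pou5f1*, 6 could be tested and none was called between pre-iPS and iPS lines (*Sfta2* did not pass the filter). *Tcf19*, which starts 10.8 kb from *Pou5f1* on the other strand, was at 1193 and 1451 in pre-iPS cells and at 1033 to 1569 in iPS libraries (0.16 ± 0.17, limma adjusted p = 0.497). *Cchcr1* differed by 0.13 ± 0.08, *2300002M23Rik* by 0.69 ± 0.66, *Cdsn* by -0.68 ± 0.38, *H2-Q10* by -0.44 ± 0.25 and *Psors1c2* by -1.21 ± 0.57, none of them called. In MEF, *2300002M23Rik*, *H2-Q10* and *Psors1c2* differed from iPS lines by -6.59, -5.84 and -4.04 and *Cdsn* by 2.97, all called, where 41.9% of all genes were lower and 37.4% higher.

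Without division by length, and so to be read across libraries only, the ratio of *Pou5f1* to *Tcf19* was 329 and 286 in pre-iPS cells, 64.1 to 106 in iPS libraries and 1.82 and 1.53 in MEF. Near *Sox2* the listed *Gm3143* was not called (-0.61 ± 0.38, limma adjusted p = 0.237). *Sox2ot*, a long transcript at chr3:34104270-34682619 that runs across *Sox2* on the same strand and was added after its values were seen, went the other way between pre-iPS and iPS lines. It was at 16.3 and 25.9 in pre-iPS cells, at 39.6 and 44.8 in the control, 29.3 and 37.0 in clone 1, 52.6 and 51.1 in clone 2, and 12.3 on average in MEF, a log2 difference of -0.98 ± 0.25 between pre-iPS and iPS lines (limma adjusted p = 0.0157). *Sox2* to *Sox2ot* was therefore 1135 and 847 in pre-iPS cells against 185 to 318 in iPS libraries. Both genes lie on 1 strand, and how reads in their overlap were counted is not given in the sources used here.

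The called neighbour was *Pvt1*, a long noncoding RNA that starts 52.6 kb downstream of *Myc*. It stood at 746 and 880 in pre-iPS cells and at 456 to 670 in iPS libraries, higher by 0.50 ± 0.10 (limma adjusted p = 0.00463), a smaller difference than the 1.25 of *Myc*. In MEF, where *Myc* was lowest, *Pvt1* was highest, at 969 and 910, above the iPS lines by 0.71 ± 0.10 (limma adjusted p = 0.000154). *Myc* to *Pvt1* was 170 and 159 in pre-iPS cells, 75.7 to 132 in iPS libraries and 2.68 and 2.73 in MEF. No listed gene starts within 100 kb of *Klf4*. The median change of the other genes on chromosome 17 between pre-iPS and iPS lines was 0.03 and on chromosome 3 0.00.

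**Figure D5:**
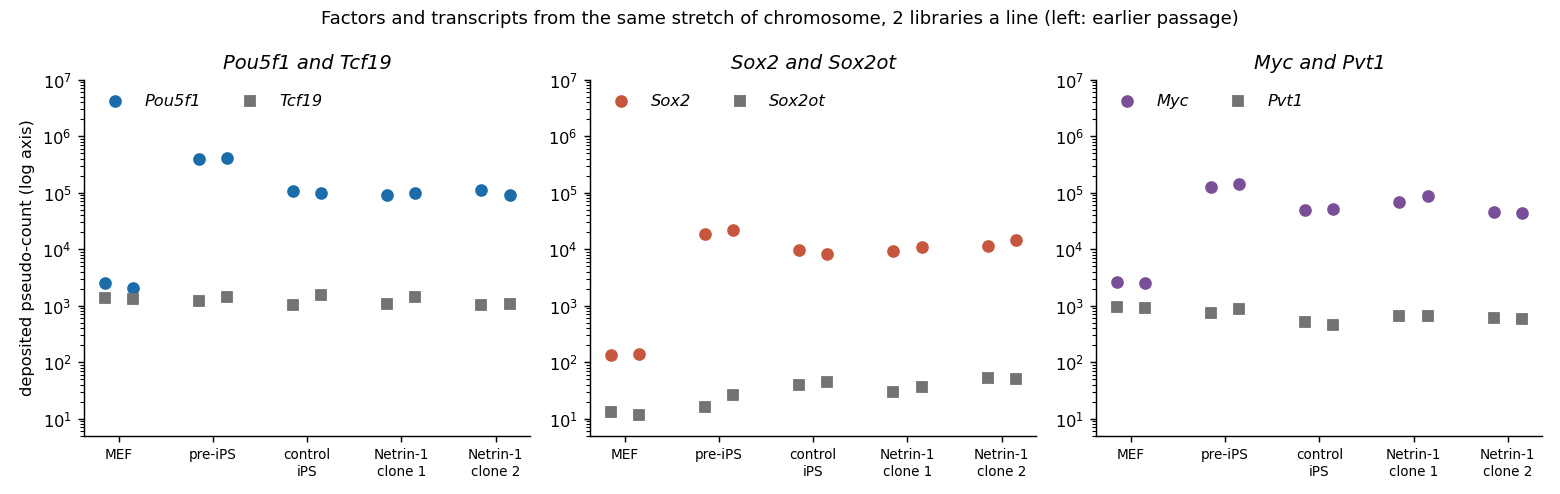
Pseudo-counts (log axis) of *Pou5f1*, *Sox2* and *Myc* (circles) and of *Tcf19*, *Sox2ot* and *Pvt1* (grey squares) in the 10 libraries, earlier passage left. The circles climb from MEF to pre-iPS cells while *Tcf19* stays between 1033 and 1569 and *Pvt1* between 456 and 969.

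Genes whose values ran most like each factor over the 10 libraries were, by Pearson's r on log2(value + 1), *AY358078*, *Atp2a3* (a calcium pump) and *Slc5a9* for *Pou5f1* (r = 0.996 to 0.998), and *Dpy30* (a subunit of histone H3K4 methyltransferases), *Slc28a1* and *Sh3gl2* for *Sox2* (0.998 to 0.999). They were *Vars2*, *1110008L16Rik* and *Trpm2* for *Klf4* (0.995 to 0.997) and *Itgb7*, *Atad3a* and *Plekha6* for *Myc* (0.996 to 0.997). These values describe 10 libraries of 5 lines and are set largely by the step from MEF. *Atp2a3*, for example, had 283 and 243 in MEF against 11020 to 14593 in iPS libraries, and 48747 and 48404 in the pre-iPS line. Among the factors themselves *Klf4* and *Myc* were closest, with r = 0.991, and 0.923 in the 8 libraries without MEF, while *Sox2* and *Myc* fell from 0.978 to 0.691.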

How the data were processed

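Poly(A) RNA of 10 libraries was read as 50 nt single reads. The submitters' processing notes name CASAVA 1.8.2, FastQC, TopHat2 2.0.8b, HTSeq 0.5.3p9, edgeR and mm10; the annotation and the strand setting of the counting are not given in the sources used here. The authors deposited edgeR pseudo-counts, a signal in units near 1 read. Whole reads were recovered for 100% of values in every library (tolerance 0.1), 38110410 to 52946856 reads on genes. Counting error was not compared with the spread between libraries, and *Sox2* had only 111 and 131 reads in MEF. How reads shared with pseudogenes of *Pou5f1* were counted is not given either, so its values are uncertain to that extent.

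Lines were compared with limma 3.58.1 under R 4.3.3 (eBayes with trend) on log2(value + 1), with 1 mean a line over all 10 libraries, for genes that reached a value of 10 in 2 or more libraries. Benjamini-Hochberg adjustment ran over 17075 genes, and a gene was called at an adjusted p under 0.05. The passage fit used 8 libraries with the line as a block. Ratios were compared by exact two-sided permutation of libraries. Alternatives were edgeR 4.0.16 and DESeq2 1.42.0 on recovered reads, other pseudocounts, filters and scalings, fits of only the lines compared, passage as a replicate block, and leaving out each library. The deviations of libraries of the same passage correlated between every pair of lines (0.235 to 0.504), so passages pair the pre-iPS and iPS libraries, not MEF. The tests were tried on simulated data with known changes, drawn independently for each library. Beyond the known changes, such draws hold no deviation shared within a passage or line, so they do not cover that part of the design.

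The genes and the lists of paralogs, targets and markers were chosen with earlier results of these data known. Named were the 4 factors, the most abundant paralogs and *Sox1*, *Sox3*, *Sox15*, *Klf2*, *Klf5*, *Mycn*, *Mycl* and *Max*, the 3 highest and 3 lowest targets a list, the naive markers, the 3 genes most like each factor, and listed genes starting within 100 kb. *Pou1f1* and *Sox14* are not in the table. Of its symbols 98.9% were located in GENCODE M21.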

Additional observations from a re-analysis of the deposited data

Results flagged for a closer look

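*Myc* was lower in clone 2 than in clone 1 (a log2 difference of -0.79 by limma). The estimated difference from the control line was thus not the same in the 2 Netrin-1-derived clones. The call between clones was lost in 5 of 20 alternatives, among them a fit of the 2 clones alone (limma adjusted p = 0.232). The libraries of the clones did not overlap, at 68172 and 88310 against 45259 and 44613. Each clone is 1 line, so the difference between clones and that between derivations cannot be told apart.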

How the results depend on the processing

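All calls of the 4 factors between pre-iPS and iPS lines, MEF and iPS lines, and pre-iPS cells and MEF kept their direction and side of the threshold under every alternative run; without single libraries the pre-iPS difference was 1.98 to 2.06 for *Pou5f1*, at least 0.81 for *Sox2*, 1.24 to 1.51 for *Klf4* and 1.18 to 1.32 for *Myc* (log2, limma). In fits of only the lines compared, *Klf4* lost its call in the clones (0.72) and in clone 1 (0.88), *Myc* in clone 1 (0.63) and between clones (-0.79), with sizes unchanged; fewer samples then set the spread. With passage as a replicate block, clone 2 was called against the control for *Sox2* (0.55) and *Klf4* (0.55), as by DESeq2 (0.55 and 0.54), and the block changed no other call of the factors; it raised the genes called from 697 to 1327 for the clones, 424 to 1009 for clone 1, and 271 to 623 between clones. DESeq2 called 1371, 1225 and 1003 there, and fits of only the lines compared 169, 0 and 6. The passage difference of *Klf4* was called by edgeR (0.27) and DESeq2 (0.27). Leaving out single libraries gave 0.60 to 0.84 for *Klf4* in the clones, 0.65 to 1.12 in clone 1 and 0.46 to 0.64 in clone 2, 0.44 to 0.82 for *Myc* in clone 1, -0.97 to -0.60 between clones, and 0.089 to 0.28 for *Sox2* by passage. Uncalled *Pou5f1* differences turned sign, at -0.18 to 0.082 (clone 2 against control), -0.046 to 0.22 (between clones) and -0.092 to 0.034 (passage), as did the *Sox2* to *Myc* ratio of the clones (-0.13 to 0.34) and the passage change of pre-iPS against iPS lines for *Sox2* (-0.054 to 0.23), *Klf4* (-0.063 to 0.14) and *Myc* (-0.074 to 0.12; -0.066 by quantile normalization and -0.0017 by housekeeping scaling). That last comparison could not be fitted without a pre-iPS library. Causes were not tested. Without pre-iPS passage 5, 4168 genes were called between pre-iPS and iPS lines against 6758. The factors have over 100 reads in every library, the fewest being 111 for *Sox2* in MEF passage 2. The part of sequencing depth was not tested.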
